A study of Homo sapiens with 12 samples.

Results

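Ribosome biogenesis factors were followed in HCT116 and HCT15 cells, a pair of human colorectal carcinoma lines, with and without overexpression of RNF26, a ubiquitin ligase anchored in the membrane of the endoplasmic reticulum. The set holds 42 protein-coding genes of 63036 identifiers in the table, chosen by name for their known part in making ribosomes. All 42 of 42 passed the filter on low values and entered the tests. They fall into 6 roles: 5 genes of RNA polymerase I and its initiation factors, 3 proteins of box C/D snoRNPs, 4 proteins of box H/ACA snoRNPs, 6 nucleolar chaperones and scaffold proteins, 12 factors of the small subunit and 12 of the large subunit. Poly(A) RNA was sequenced from 4 groups of 3 libraries. The genotypes are given as HCT116_con, HCT116_ov_RNF26, HCT15_con and HCT15_ov_RNF26. The sources used here do not give the vector, the way RNF26 was introduced, what the control cells carried or whether a line is 1 clone.

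A ribosome is assembled in the nucleolus around ribosomal RNA that RNA polymerase I transcribes as a long precursor. Small nucleolar RNAs, held in box C/D and box H/ACA ribonucleoproteins, guide methylation and pseudouridylation of that precursor, while the small subunit processome and a series of large subunit factors fold it, cut it and load ribosomal proteins. Demand for these factors is high in growing tumour cells, and the transcription factor MYC is known to bind E-box sequences at many of their genes.

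Promoter windows are shown for 6 genes as examples. The first 4 hold the E-box CACGTG and fell in HCT15 with RNF26, LAS1L fell without that motif in its window, and TAF1D was the member that rose. Among all members with a window, 11 of 17 with the motif and 10 of 19 without it fell (limma adjusted p under 0.05). Of all tested genes 31.2% were called lower. The median log2 fold change was -0.32 in both. POLR1A, the largest fall, had a window without the motif, and NOP10, which did not fall, had 2 matches. BOP1 and RRP12 had no window. The sequences are from RefSeq on build GRCh38.p14, 5′ to 3′ on the strand of the gene, from 250 bases upstream to 30 bases downstream of the gene's start. Each is in lower case with the motif CACGTG in capitals.
RRP9 (chr3:51941875-51942154, minus strand): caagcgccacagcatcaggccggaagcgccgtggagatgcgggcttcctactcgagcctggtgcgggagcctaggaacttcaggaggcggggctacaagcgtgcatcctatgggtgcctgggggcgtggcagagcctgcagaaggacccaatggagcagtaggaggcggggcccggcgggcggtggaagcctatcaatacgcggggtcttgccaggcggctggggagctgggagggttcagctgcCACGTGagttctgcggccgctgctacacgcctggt
UTP20 (chr12:101279855-101280134, plus strand): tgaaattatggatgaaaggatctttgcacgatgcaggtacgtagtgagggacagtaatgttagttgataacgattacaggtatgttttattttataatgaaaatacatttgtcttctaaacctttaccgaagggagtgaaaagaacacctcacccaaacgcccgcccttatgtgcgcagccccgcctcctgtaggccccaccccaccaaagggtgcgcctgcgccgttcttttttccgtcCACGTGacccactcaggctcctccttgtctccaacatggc
IMP4 (chr2:130342647-130342926, plus strand): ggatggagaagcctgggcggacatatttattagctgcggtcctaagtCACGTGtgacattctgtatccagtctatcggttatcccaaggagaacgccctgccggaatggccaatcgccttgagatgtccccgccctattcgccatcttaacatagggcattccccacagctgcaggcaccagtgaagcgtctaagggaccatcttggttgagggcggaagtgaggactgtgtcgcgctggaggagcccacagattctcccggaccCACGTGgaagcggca
NOP14 (chr4:2963377-2963656, minus strand): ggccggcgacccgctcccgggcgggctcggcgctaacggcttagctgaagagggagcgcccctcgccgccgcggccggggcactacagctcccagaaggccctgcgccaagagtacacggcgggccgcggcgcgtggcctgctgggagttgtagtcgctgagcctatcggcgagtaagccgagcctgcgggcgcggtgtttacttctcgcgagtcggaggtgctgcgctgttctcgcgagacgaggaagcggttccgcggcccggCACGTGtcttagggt
LAS1L (chrX:65534758-65535037, minus strand): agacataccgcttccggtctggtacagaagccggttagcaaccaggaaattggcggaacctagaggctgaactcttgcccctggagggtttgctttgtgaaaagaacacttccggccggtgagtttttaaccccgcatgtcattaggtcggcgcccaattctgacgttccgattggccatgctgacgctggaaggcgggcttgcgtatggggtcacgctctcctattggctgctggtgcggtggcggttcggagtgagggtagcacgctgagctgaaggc
TAF1D (chr11:93741466-93741745, minus strand): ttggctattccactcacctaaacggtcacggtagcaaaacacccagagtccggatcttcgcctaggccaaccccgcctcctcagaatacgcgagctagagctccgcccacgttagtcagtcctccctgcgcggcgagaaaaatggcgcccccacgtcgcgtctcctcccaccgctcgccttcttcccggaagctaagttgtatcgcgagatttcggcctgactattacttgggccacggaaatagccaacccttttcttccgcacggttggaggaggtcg

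The motif begins 5 bases upstream of the gene's start in RRP9, 10 bases upstream in UTP20, 203 bases upstream and again 15 bases downstream in IMP4, and 15 bases downstream in NOP14. CACGTG reads the same on both strands, and it was searched in windows that reach 50 bases downstream. RefSeq windows were matched for 36 of the 42 genes, with 46 windows in all. A gene counted as having the motif if any of its windows held it, and distances are from the start of the window concerned. The motif was present in 17 of these 36 genes (47.2%), in 28 of 99 other ribosome biogenesis genes (28.3%) and in 1355 of 10742 tested genes with a window (12.6%). Of the 19 matches in the 36 genes, 16 began within 50 bases of the gene's start. Positions were not counted in other genes, so this cannot be read as a trait of the set. A match is a string in a window and says nothing of binding in these cells.

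RNF26 averaged 16.8 ± 1.44 TPM (transcripts per 1000000) in HCT116 control and 296 ± 39.4 TPM in HCT116 RNF26 libraries, and 27.0 ± 0.762 and 54.2 ± 0.562 TPM in those of HCT15 (SD, n = 3 each). In each line every RNF26 library exceeded every control (two-sided exact permutation p = 0.1, the smallest that 3 against 3 allows). Sequencing depth cannot be read from TPM and is unknown here. Of 9 epithelial markers 6 reached 1 TPM in every library, and CDX1 was under 1 TPM in all of them, VIL1 in HCT116 and KRT20 near 0 in HCT15. Of 7 markers of immune, fibroblast and endothelial cells 6 were under 1 TPM in all libraries, and their summed level was 0.28 to 2.91 TPM. HCT15 control replicate 3 stood apart in its mitochondrial share, 25.9% of TPM against 16.4% to 19.2% in the other HCT15 libraries. Separate cultures are not named for the replicates, and p-values then reflect only the spread among these libraries.

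The 42 genes covered a wide range of levels. NPM1, which encodes the nucleolar chaperone nucleophosmin, was highest, with a mean of 2747 TPM over the 12 libraries, and POLR1A, the largest subunit of RNA polymerase I, was lowest at 6.53 TPM. Their summed level was 8584 ± 44.4 TPM in HCT116 control, 8881 ± 205 in HCT116 RNF26, 6825 ± 449 in HCT15 control and 6463 ± 287 in HCT15 RNF26 libraries (SD, n = 3 each). NPM1 was the largest part of that sum, and without it the sums were 5907 ± 60.7, 6014 ± 177, 4277 ± 223 and 3567 ± 101 TPM in the same order. These mRNAs thus took a smaller share of TPM in HCT15 than in HCT116 in both arms, and the HCT15 arms overlapped in the whole sum but not in the sum without NPM1. In bulk RNA, fewer cells with an mRNA and less of it per cell cannot be told apart.

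**Figure D1:**
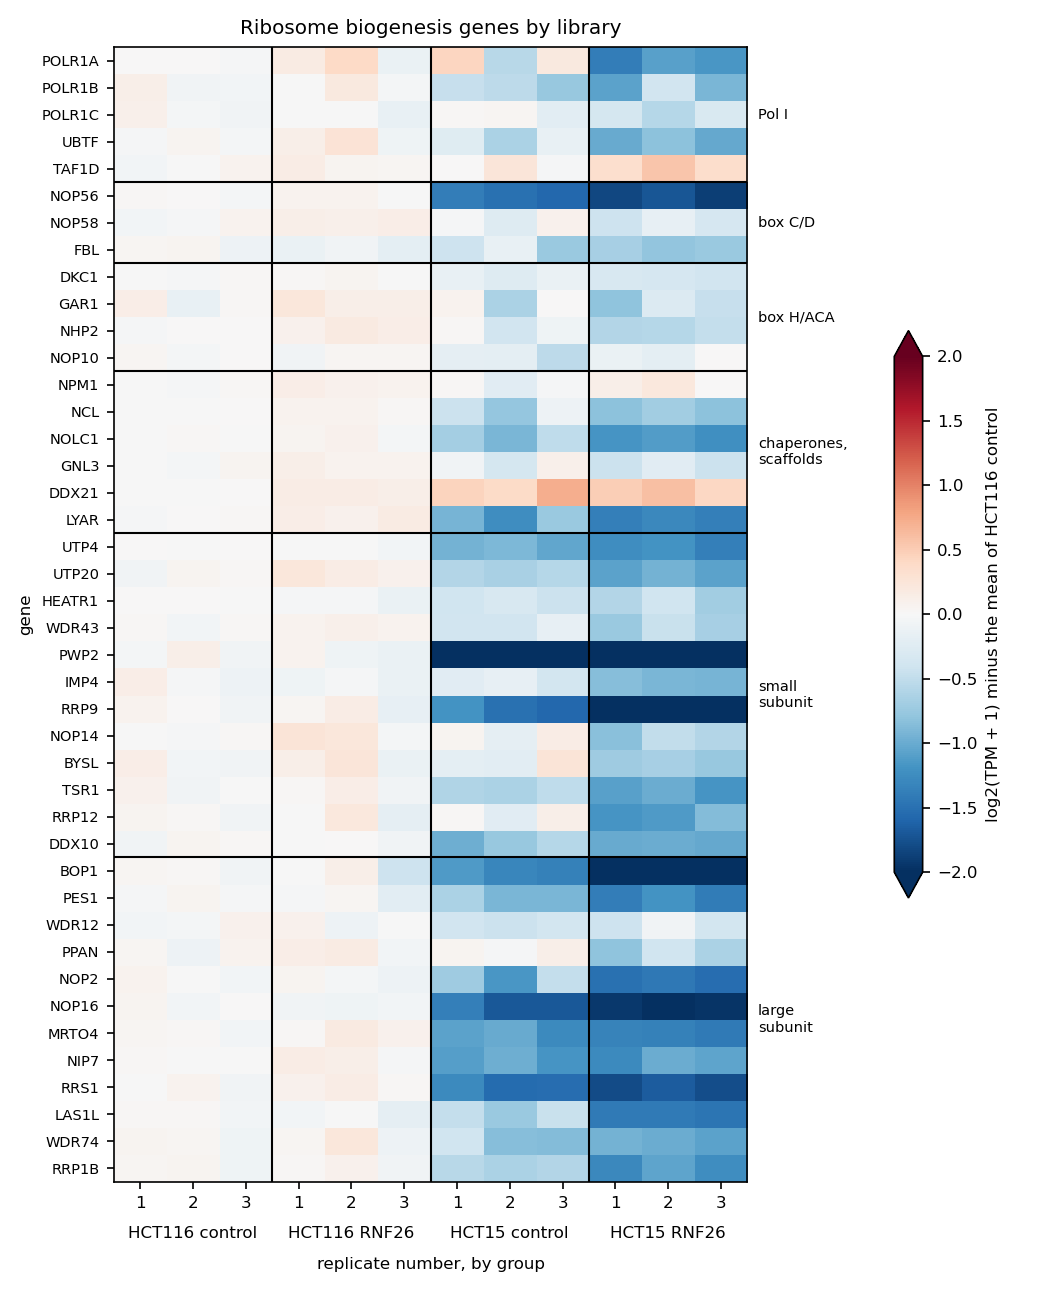
Each row is 1 of the 42 genes, ordered by role, and each column 1 of the 12 libraries, 3 for each group. The colour is log2(TPM + 1) minus the mean of the HCT116 control libraries, with colours saturating at -2 and 2: the HCT116 RNF26 columns stay close to 0, most HCT15 control rows are blue, and most rows are a darker blue in the HCT15 RNF26 columns. PWP2, whose level is shared with a near-identical copy, is the darkest row in both HCT15 groups.

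In HCT15, most of the set was lower with RNF26. Of the 42 genes 26 fell, 1 rose and 15 did not pass (limma on log2(TPM + 1), Benjamini-Hochberg adjusted p under 0.05), against 31.2% of all 15584 tested genes called lower, 5.39% called higher and 36.6% called either way. The falls ran from 1.13-fold for DKC1 to 2.99-fold for POLR1A in the ratio of mean TPM. Control and RNF26 libraries did not overlap for 28 genes lower with RNF26 and 1 higher, where 35.9% and 7.23% of all tested genes showed this. The median log2 fold change was -0.34 over the 42 genes and -0.17 over all tested genes, so the set lay -0.17 from the bulk of the transcriptome, and 35 of the 42 genes lay below the median gene. The split moved with the scaling: 16 fell and 4 rose with median-ratio scaling, 18 and 4 with quantile normalization, 20 and 3 after removal of mitochondrial and ribosomal protein genes, and 30 and 0 once GC content and length were corrected for. The genes that rose beside TAF1D were NOP10, NPM1 and WDR12 with median-ratio scaling, NOP10, WDR12 and NIP7 with quantile normalization, and NOP10 and NPM1 after the removal. The shares of all tested genes called lower and higher moved too, to 16.7% and 14.4%, 16.2% and 14.6%, 22.5% and 9.12%, and 33.4% and 4.26% in the same order. For the 42 genes the shares were 38.1% and 9.52%, 42.9% and 9.52%, 47.6% and 7.14%, and 71.4% and 0%, so under the first 3 settings the rises took a smaller share of the set than of all genes. Relative to the median of all genes the set lay at -0.12, -0.19, -0.14 and -0.21 in the same order. Mitochondrial and ribosomal protein genes took 44.7% to 46.5% of TPM in the HCT15 RNF26 libraries and 39.5% to 43.4% in the HCT15 controls.

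Across these and the other settings run, 25 in all, 16 genes were called lower in each. They were POLR1A and UBTF of RNA polymerase I transcription, the scaffold gene NOLC1, the small subunit genes UTP20, IMP4, RRP9, NOP14, BYSL, TSR1 and RRP12, and the large subunit genes BOP1, PES1, PPAN, NOP2, LAS1L and RRP1B. The remaining 11 called genes, TAF1D among them, lost the call in at least 1 setting.

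**Figure D2:**
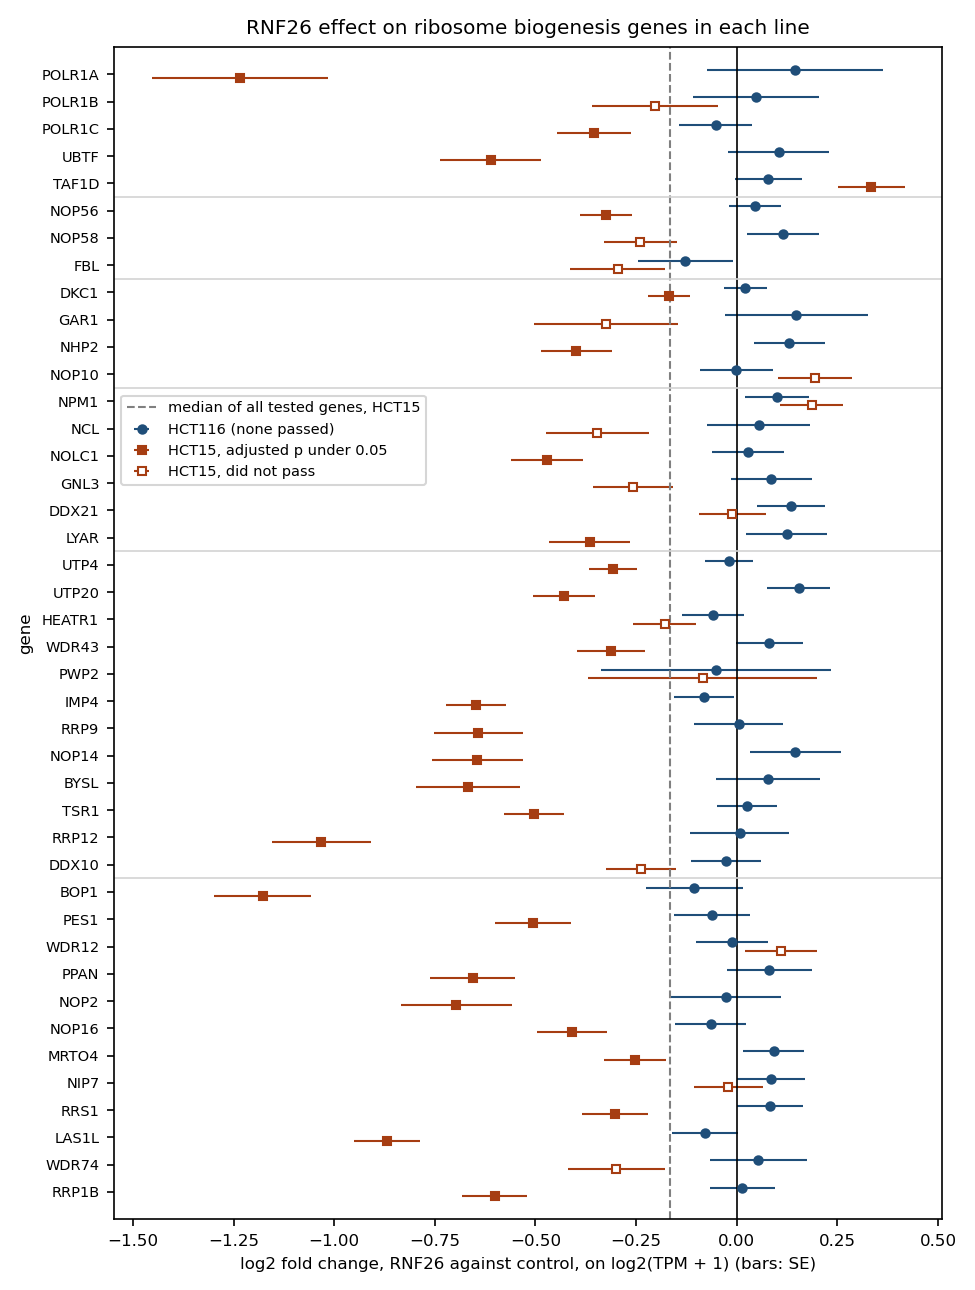
For each of the 42 genes, ordered by role, the log2 fold change of RNF26 against control libraries on the log2(TPM + 1) scale is drawn with its SE, as circles for HCT116 and squares for HCT15. Filled squares passed at an adjusted p under 0.05, and the dashed line is the median of all tested genes in HCT15 (-0.17): 26 filled squares lie left of 0 and 1, TAF1D, lies right of it, while 0 circles passed.

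Genes of RNA polymerase I transcription moved both ways. Of 5 genes 3 fell and 1 rose (60% and 20%, against 31.2% and 5.39% of all tested genes). POLR1A, which holds the catalytic centre, was at 10.3, 4.67 and 8.53 TPM in control libraries 1, 2 and 3 and 2.20, 2.93 and 2.72 TPM in the RNF26 libraries. All RNF26 libraries lay below all controls, although control 2 was well below the other 2. The log2 fold change -1.23, SE 0.219, limma adjusted p = 0.00137 made it the largest fall of the set. UBTF, which encodes the upstream binding factor that opens ribosomal DNA, was at 35.4, 26.9 and 37.9 TPM in control libraries 1, 2 and 3 and 20.4, 23.5 and 20.2 TPM in the RNF26 libraries (log2 fold change -0.61, SE 0.126, limma adjusted p = 0.0032). Its groups did not overlap either. POLR1C, a subunit shared by polymerases I and III, fell less, from 73.0 ± 6.82 to 56.9 ± 5.67 TPM (SD, n = 3 each, log2 fold change -0.35, SE 0.0915, limma adjusted p = 0.011). The second largest subunit gene, POLR1B, averaged 19.5 ± 2.10 TPM in the controls and 17.1 ± 4.80 TPM with RNF26 and did not pass. Without HCT15 RNF26 replicate 2 its log2 fold change went from -0.20 to -0.41 and passed (limma adjusted p = 0.0184, range 0.0184 to 0.996).

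TAF1D, a subunit of the SL1 factor that recruits RNA polymerase I, was at 172, 201 and 168 TPM in control libraries 1, 2 and 3 and 215, 249.99 and 216 TPM in the RNF26 libraries. The lowest RNF26 library exceeded the highest control, and the rise was 0.33 on the log2 scale (SE 0.0829, limma adjusted p = 0.00895). TAF1D is the member with the lowest GC content (38.03%), and after the GC and length correction its log2 fold change was 0.088 (limma adjusted p = 0.334, range over settings 4.42e-04 to 0.334). It also holds 8 snoRNA genes within its bounds and overlaps CEP295, C11orf54 and MED17 on the other strand. POLR1C missed the threshold under 4 settings: median-ratio scaling (limma adjusted p = 0.313), quantile normalization (0.154), leaving out mitochondrial and ribosomal protein genes (0.0532) and fitting HCT15 by itself (0.0603, range 0.00422 to 0.313), and TAF1D missed it in the last of these too (0.0609).

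Among the core proteins of snoRNPs, 1 of the 3 box C/D proteins fell (33.3%, near the 31.2% of all tested genes called lower). NOP56 was at 197, 182 and 173 TPM in the controls and 145, 156 and 139 TPM with RNF26 (log2 fold change -0.32, SE 0.0649, limma adjusted p = 0.00274). Its groups did not overlap, and 1 setting, median-ratio scaling, ended the call (limma adjusted p = 0.154, range 0.00174 to 0.154). NOP58, its partner in the same particle, averaged 153 ± 18.5 TPM in the controls and 129 ± 11.2 TPM with RNF26 (limma adjusted p = 0.0572). The methyltransferase gene FBL averaged 484 ± 96.8 and 389 ± 16.8 TPM (limma adjusted p = 0.0731). Neither passed, and in both the groups overlapped. NOP58 passed without HCT15 control replicate 2 (limma adjusted p = 0.00559) or RNF26 replicate 2 (0.0286, range 0.00154 to 0.899), and FBL without HCT15 control replicate 3 (0.00242, range 0.00242 to 0.675). NOP58 also fell with the GC and length correction (log2 fold change -0.47, limma adjusted p = 0.00154).

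Of the 4 box H/ACA proteins 2 fell (50%, against 31.2% of all tested genes). NHP2 was at 334, 252 and 309 TPM in the controls and 218, 220.5 and 235 TPM with RNF26 (log2 fold change -0.40, SE 0.0887, limma adjusted p = 0.00498), with no overlap. DKC1, the pseudouridine synthase, was at 106, 98.4 and 108 TPM in the controls and 94.5, 93.2 and 89.6 TPM with RNF26, also with no overlap. Its fall of 0.17 (log2, SE 0.0529, limma adjusted p = 0.0281) was close to the median shift of all tested genes. GAR1 averaged 48.2 ± 12.1 and 37.8 ± 7.03 TPM (log2 fold change -0.32, limma adjusted p = 0.184) and NOP10 359.9 ± 46.2 and 410.4 ± 30.2 TPM (0.19, limma adjusted p = 0.119). The 4 proteins form 1 particle, and their log2 fold changes spanned -0.40 to 0.19. The DKC1 call ended in 10 settings, among them median-ratio scaling, where the log2 fold change was 0.05 (limma adjusted p = 0.540), and the omission of control 1 (0.0834), control 3 (0.0621), RNF26 library 1 (0.0501) or RNF26 library 3 (0.0947) of HCT15, with a range of 0.00425 to 0.815. The NHP2 call ended with median-ratio scaling (0.173) and when HCT15 was fitted by itself (0.0550, range 1.48e-04 to 0.173), and GAR1 passed without HCT15 control replicate 2 (0.00902, range 0.00902 to 0.691).

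NPM1 and NCL, the most abundant members, did not pass in HCT15. NPM1 was at 2711, 2287 and 2646 TPM in the controls and 2901, 3094 and 2691 TPM with RNF26, so the groups overlapped and the log2 fold change of 0.19 did not pass (limma adjusted p = 0.0901). NPM1 has 45 named pseudogenes, so its level is uncertain. NCL, which encodes nucleolin, was at 792, 623 and 994 TPM in the controls and 604, 658 and 601 TPM with RNF26 (log2 fold change -0.35, limma adjusted p = 0.0549). Its controls spanned 623 to 994 TPM, and control 2 lay among the RNF26 libraries. DDX21, an RNA helicase, averaged 194 ± 25.7 and 191 ± 12.3 TPM. GNL3, which encodes nucleostemin, averaged 213 ± 32.9 and 177 ± 14.8 TPM (limma adjusted p = 0.0644).

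Of these 6 genes 2 fell (33.3%, near the 31.2% of all tested genes). NOLC1, a scaffold that carries snoRNPs, was at 168, 142 and 189.8 TPM in the controls and 119, 123 and 115 TPM with RNF26 (log2 fold change -0.47, SE 0.0895, limma adjusted p = 0.00204), with no overlap. LYAR, a nucleolar regulator of growth, was at 43.0, 34.3 and 49.0 TPM in the controls and 31.4, 33.3 and 31.7 TPM with RNF26 (log2 fold change -0.37, SE 0.101, limma adjusted p = 0.0152), with no overlap. The call on LYAR ended in 6 settings, among them without HCT15 control replicate 1 (limma adjusted p = 0.05005) or HCT15 RNF26 replicate 1 (0.0504) and with quantile normalization (0.365, range 3.17e-04 to 0.365). Without HCT15 control replicate 2, NCL (0.00114, range 0.00114 to 0.509) and GNL3 (0.00328, range 0.00274 to 0.815) fell. GNL3 fell also without HCT15 RNF26 replicate 2 (limma adjusted p = 0.0389).

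**Figure D3:**
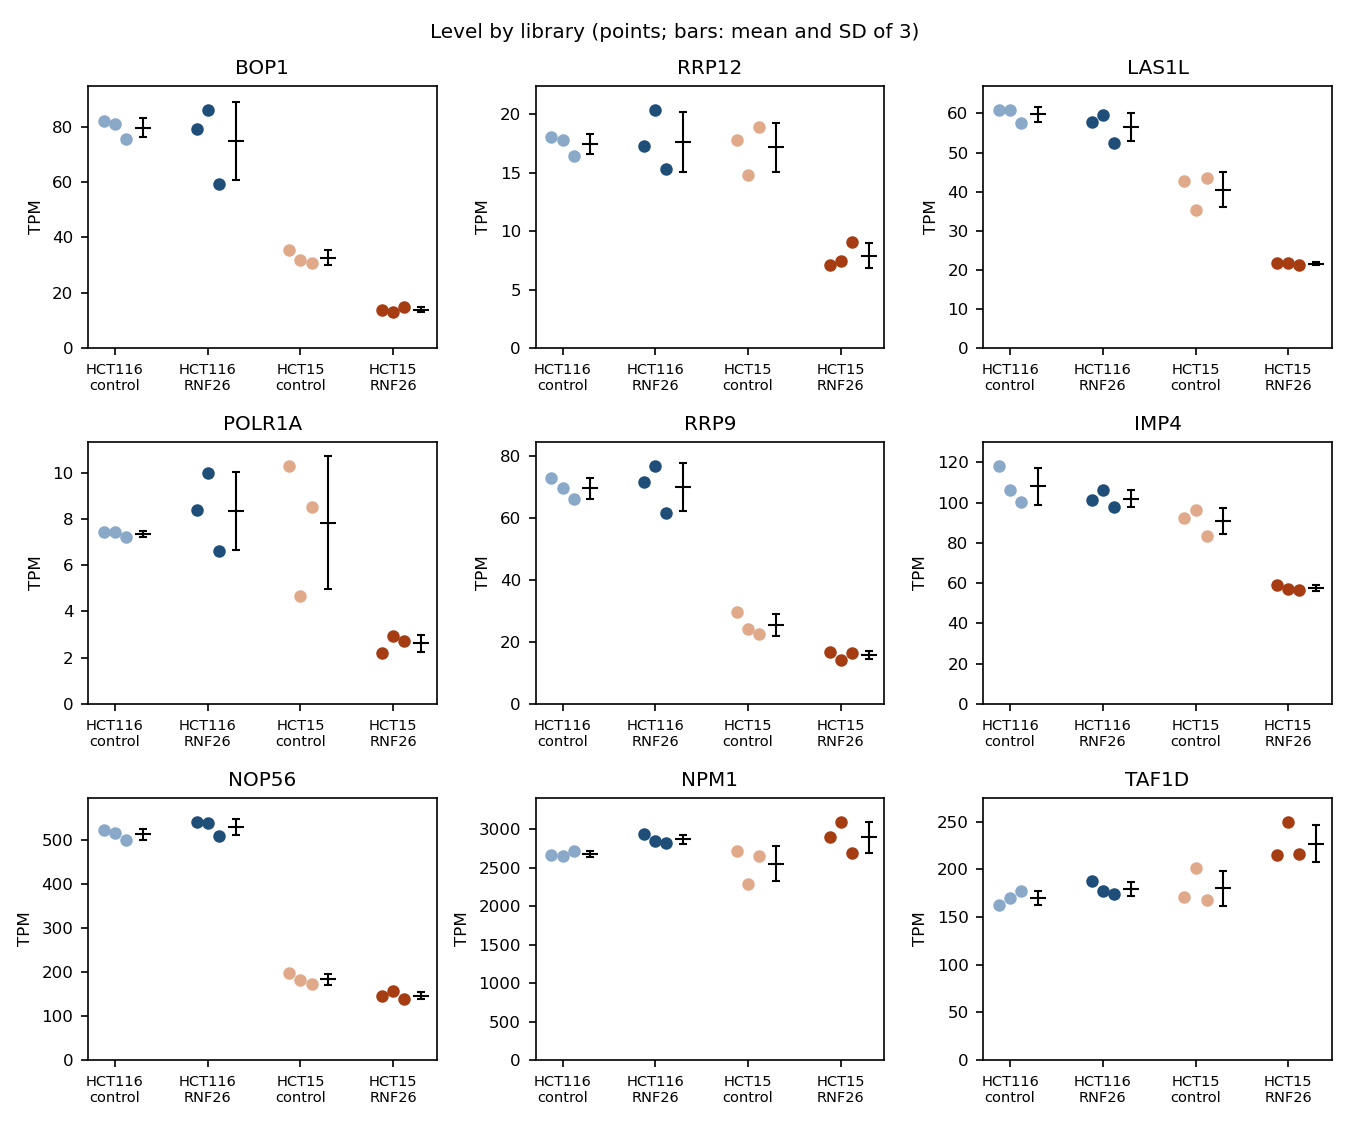
TPM of 9 genes is plotted for each of the 12 libraries as points, with the mean and SD of the 3 libraries of a group beside them, each panel on its own axis from 0. BOP1, RRP12, LAS1L, POLR1A, RRP9, IMP4 and NOP56 are lower in all 3 HCT15 RNF26 libraries than in the 3 HCT15 controls, NPM1 overlaps, and TAF1D is higher.

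Of the small subunit factors 9 of 12 fell, as did 9 of 12 of the large subunit (75% each, against 31.2% of all tested genes). RRP12, which takes part in the export and maturation of pre-ribosomes, was at 17.8, 14.8 and 18.9 TPM in control libraries 1, 2 and 3 and 7.10, 7.45 and 9.10 TPM in the RNF26 libraries. Each RNF26 library was below the lowest control by more than 5 TPM, and the mean was 2.18-fold lower (log2 fold change -1.03, SE 0.123, limma adjusted p = 1.47e-04). IMP4, a U3 snoRNP protein, has 2 E-boxes in the window printed above and 0 in its other window. It was at 92.6, 96.2 and 83.5 TPM in the controls and 59.1, 57.0 and 56.4 TPM with RNF26 (log2 fold change -0.65, SE 0.0742, limma adjusted p = 1.22e-04). RRP9, another U3 protein with an E-box close to its start, was at 29.6, 24.0 and 22.7 TPM in the controls and 16.8, 14.3 and 16.6 TPM with RNF26 (log2 fold change -0.64, SE 0.11, limma adjusted p = 0.00112). TSR1, a late pre-40S factor, was at 44.2, 43.1 and 47.4 TPM in the controls and 31.4, 33.4 and 29.3 TPM with RNF26 (log2 fold change -0.50, SE 0.0741, limma adjusted p = 4.60e-04). In all 4 the groups did not overlap.

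UTP20 and NOP14, processome proteins, have the E-box shown above. UTP20 was at 5.91, 5.67 and 6.01 TPM in the controls and 3.94, 4.40 and 3.96 TPM with RNF26 (log2 fold change -0.43, SE 0.0772, limma adjusted p = 0.00148). NOP14 was at 36.7, 30.7 and 38.9 TPM in the controls and 19.3, 24.7 and 23.0 TPM with RNF26 (log2 fold change -0.64, SE 0.114, limma adjusted p = 0.00133), and neither gene's groups overlapped. BYSL, which acts late in small subunit assembly, was at 29.7, 29.4 and 40.8 TPM in the controls and 20.3, 21.1 and 19.6 TPM with RNF26 (log2 fold change -0.67), where control 3 stood above the other controls. WDR43 (-0.31) and UTP4 (-0.31) made up the other falls. UTP4, WDR43 and HEATR1 belong to 1 subcomplex that is among the earliest to join the precursor. HEATR1 had a log2 fold change of -0.18 (limma adjusted p = 0.0951) and did not pass, nor did the helicase gene DDX10 (-0.24, limma adjusted p = 0.0514), although its highest RNF26 library (23.7 TPM) was below its lowest control (24.0 TPM). HEATR1 passed without HCT15 RNF26 replicate 2 (limma adjusted p = 0.0175, range 0.00307 to 0.748) and DDX10 without HCT15 control replicate 1 (0.00719, range 0.00573 to 1.0). PWP2 (-0.085) is taken up below. The calls on UTP4 and WDR43 ended with median-ratio scaling (limma adjusted p = 0.213, range 3.32e-04 to 0.213, and 0.388, range 3.40e-04 to 0.388) and quantile normalization (0.119 and 0.278), and that on WDR43 also without HCT15 RNF26 replicate 1 (0.0590).

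Large subunit factors held the other strong falls. BOP1, which with PES1 and WDR12 forms a complex needed to cut the precursor for the large subunit RNAs, was at 35.6, 31.7 and 30.8 TPM in control libraries 1, 2 and 3 and 13.8, 13.0 and 14.9 TPM in the RNF26 libraries. The highest RNF26 library was below 15 TPM and the lowest control above 30 TPM, a 2.35-fold lower mean (log2 fold change -1.18, SE 0.12, limma adjusted p = 6.79e-05). PES1 averaged 77.4 ± 8.99 TPM in the controls and 54.1 ± 4.38 TPM with RNF26 (log2 fold change -0.51, limma adjusted p = 0.00182). WDR12 averaged 72.5 ± 1.85 and 78.7 ± 10.5 TPM (0.11, limma adjusted p = 0.373), with overlapping groups. The direction of WDR12 turned with the processing: it rose with median-ratio scaling (log2 fold change 0.33, limma adjusted p = 0.0106) and quantile normalization (0.29, 0.0210), and fell with the GC and length correction (-0.21, 0.0455, range 0.0106 to 0.989). On the deposited TPM the 3 subunits of 1 complex had log2 fold changes of -1.18, -0.51 and 0.11, and the differences among them were not tested.

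LAS1L, part of the nuclease that cuts the second internal spacer, was at 42.7, 35.3 and 43.4 TPM in control libraries 1, 2 and 3 and 21.8, 21.8 and 21.2 TPM in the RNF26 libraries. The RNF26 libraries lay within 1 TPM of each other and all below the controls (log2 fold change -0.87, SE 0.0815, limma adjusted p = 5.08e-05). RRP1B was at 18.2, 17.1 and 17.8 TPM in the controls and 10.6, 12.6 and 10.9 TPM with RNF26 (log2 fold change -0.60, SE 0.0798, limma adjusted p = 2.56e-04). PPAN, a nucleolar factor of the large subunit, was at 24.7, 23.4 and 26.0 TPM in the controls and 13.2, 17.9 and 15.1 TPM with RNF26 (log2 fold change -0.66, SE 0.106, limma adjusted p = 7.75e-04). Neither gene's groups overlapped. PPAN shares exons with the readthrough locus PPAN-P2RY11, which was at 2.09 to 6.14 TPM, so its level is uncertain. NOP2, an rRNA methyltransferase, was at 23.6, 16.9 and 28.1 TPM in the controls and 13.4, 13.9 and 13.1 TPM with RNF26 (log2 fold change -0.70), with no overlap but with widely spread controls. NOP16 fell by 0.41, RRS1, which helps to bring in the 5S particle, by 0.30 and MRTO4 by 0.25 (log2). NIP7 (-0.021, limma adjusted p = 0.892) and WDR74 (-0.30, limma adjusted p = 0.0734) did not pass. WDR74 passed without HCT15 control replicate 2 (0.0441) or 3 (0.0419, range 0.0419 to 0.615, all limma adjusted p).

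Of these calls, those on NOP16, MRTO4 and RRS1 were lost with median-ratio scaling (limma adjusted p = 0.151, range 0.00261 to 0.154, then 0.731, range 0.00301 to 0.894, and 0.346, range 0.00923 to 0.689). MRTO4 also missed the threshold when control 1 (0.0764), control 2 (0.0698), RNF26 library 1 (0.0503) or RNF26 library 3 (0.0728) of HCT15 was left out, and RRS1 when control 1 (0.0503) or RNF26 library 1 (0.0513) was.

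In HCT116, 0 of the 42 genes passed, and RNF26 itself was the single call among all genes (0.00642%). An unadjusted limma p under 0.05 was reached by 0 of the 42 genes and by 4.22% of all tested genes, and the count of calls was 0 in every setting run. The median log2 fold change was 0.047 over the 42 genes and 0.007 over all genes, with a span of -0.13 (FBL) to 0.15 (UTP20). BOP1 averaged 79.7 ± 3.42 TPM without and 74.8 ± 14.0 TPM with RNF26, RRP12 17.4 ± 0.85 and 17.6 ± 2.57, and LAS1L 59.8 ± 1.96 and 56.6 ± 3.61 TPM (SD, n = 3 each). The genes with the smallest p were UTP20, at 8.94, 9.75 and 9.54 TPM in the controls and 11.2, 10.5 and 9.99 TPM with RNF26 (log2 fold change 0.15), DDX21 (0.14) and NHP2 (0.13).

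For 9 genes every HCT116 RNF26 library exceeded every control, against 7.25% of tested genes, and for 1, HEATR1, all lay below, against 5.56%. The 9 were NOP58, NHP2, NPM1, NCL, GNL3, DDX21, LYAR, UTP20 and WDR43, and 5 of them are among the 6 nucleolar chaperones and scaffold proteins. NPM1 was at 2666, 2644 and 2719 TPM in the controls and 2935, 2844 and 2823 TPM with RNF26, and DDX21 at 134, 134 and 135 and 149, 148 and 145 TPM. These shifts were small, 0.099 and 0.14 on the log2 scale, and did not pass the test.

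The effect of RNF26 differed between the lines for 23 of the 42 genes, all with the lower value in HCT15 (limma test of the difference of effects, adjusted p under 0.05), against 18.7% of all tested genes with a lower and 1.80% with a higher effect in HCT15. By role these were 2 of 5 polymerase I genes, 1 of 3 box C/D, 1 of 4 box H/ACA, 2 of 6 chaperones and scaffolds, 9 of 12 small subunit and 8 of 12 large subunit genes. LAS1L had the smallest p, with a difference of -0.79 (log2, HCT15 minus HCT116, SE 0.115, limma adjusted p = 0.00207). BOP1 (-1.07, adjusted p = 0.0028), RRP12 (-1.04, adjusted p = 0.0036) and RRP1B (-0.62, adjusted p = 0.00513) came next in the limma test. Over the 42 genes the effects in the lines had a Spearman correlation of 0.11, a description across genes measured in the same libraries.

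The number of differing effects was 10 with median-ratio scaling or quantile normalization (where 7.35% and 6.9% of all tested genes had a lower effect in HCT15), 15 after removal of mitochondrial and ribosomal protein genes, and 15 without HCT116 RNF26 replicate 2. After the removal the share of all tested genes with a lower effect in HCT15 was also smaller than on the deposited TPM. The share with a higher effect was larger. Without HCT116 RNF26 replicate 2 the shares of all tested genes are not given here. Of the differing effects 1, that of TAF1D, was higher in HCT15 with median-ratio scaling (0.48, limma adjusted p = 0.0150) and after the removal (0.37, adjusted p = 0.0405), and TAF1D was also called higher without HCT15 control replicate 2 (0.34, adjusted p = 0.0333, range 0.0150 to 0.748). POLR1A, UTP20, NOP14, RRP12, BOP1, LAS1L and RRP1B were called in all 24 settings of this comparison. The RNF26 level itself rose 17.6-fold in HCT116 and 2.01-fold in HCT15, so the rise in RNF26 mRNA differed between the lines as well.

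The lines differed already without RNF26. Of the 42 genes 29 were lower and 1 was higher in HCT15 control than in HCT116 control libraries (limma, adjusted p under 0.05), against 26% of all tested genes lower, 43.6% higher and 69.5% either way. The median log2 difference was -0.43 over the 42 genes and 0.22 over all tested genes, and 41 of 42 lay below the latter. Large subunit genes were lower in 11 of 12 cases, with a median of -0.80, and small subunit genes in 9 of 12, with -0.48. The counts were 27 to 34 lower and 1 higher over the settings run. With median-ratio scaling 34 were lower, where 32% of all tested genes were lower and 37.1% higher. With quantile normalization 27 were lower, where these shares were 33.6% and 35.1%.

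NOP16, a large subunit factor, was at 171, 158 and 164 TPM in HCT116 control and 63.1, 49.8 and 50.3 TPM in HCT15 control libraries (log2 fold change -1.58, SE 0.0871, limma adjusted p = 2.43e-08). NOP56 was at 524, 517 and 499.9 and 197, 182 and 173 TPM (log2 fold change -1.48, SE 0.0649, limma adjusted p = 3.74e-09). RRS1 was at 54.5, 58.0 and 52.3 and 22.2, 18.2 and 18.5 TPM (log2 fold change -1.44, SE 0.0816, limma adjusted p = 3.10e-08). The HCT15 means were 3.02-fold, 2.79-fold and 2.80-fold lower in these 3 genes, with no overlap. DDX21 alone was higher in HCT15, at 134, 134 and 135 and 183, 175 and 223 TPM (log2 fold change 0.52, SE 0.0837, limma adjusted p = 1.85e-04). In contrast to NOP56, its box C/D partner NOP58 was at 153, 157 and 168 and 157, 133 and 169 TPM and did not pass (limma adjusted p = 0.551). With median-ratio scaling NOP58 was called lower in HCT15 (-0.24, limma adjusted p = 0.0297). On the deposited TPM several genes with large falls under RNF26 started level in both lines, among them RRP12 (17.4 and 17.2 TPM), POLR1A (7.34 and 7.83 TPM) and NOP14 (35.1 and 35.5 TPM). With quantile normalization RRP12 was lower in HCT15 control (-0.31, limma adjusted p = 0.0313).

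PWP2, a small subunit processome protein, had the largest listed difference between the control lines but cannot be read from its own row alone. Its row was at 18.8, 21.2 and 18.5 TPM in HCT116 control and 2.05, 0.64 and 1.05 TPM in HCT15 control libraries (log2 fold change -3.24, SE 0.285, limma adjusted p = 1.30e-06). The annotation holds a second locus on the same chromosome, chr21:5130871-5154734 of GRCh38, with a transcript of 3264 bases that is 99.8% identical to one of 3297 bases of PWP2 at chr21:44107290-44131181. The row of the copy averaged 12.03 ± 0.839 and 13.7 ± 0.864 TPM in these groups. Reads of the 2 loci can hardly be told apart, so the sum is the firmer value. It averaged 31.5 ± 2.31, 30.3 ± 2.76, 14.9 ± 1.57 and 10.3 ± 0.894 TPM in HCT116 control, HCT116 RNF26, HCT15 control and HCT15 RNF26 libraries (SD, n = 3 each).

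In a fit with the sum in place of PWP2, an alternative added after the data were seen, the difference between control lines was -1.03 (log2, limma adjusted p = 2.67e-06). The sum fell in HCT15 with RNF26 (log2 fold change -0.50, SE 0.0992, limma adjusted p = 0.00264), where the PWP2 row alone did not pass (limma adjusted p = 0.864).

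**Figure D4:**
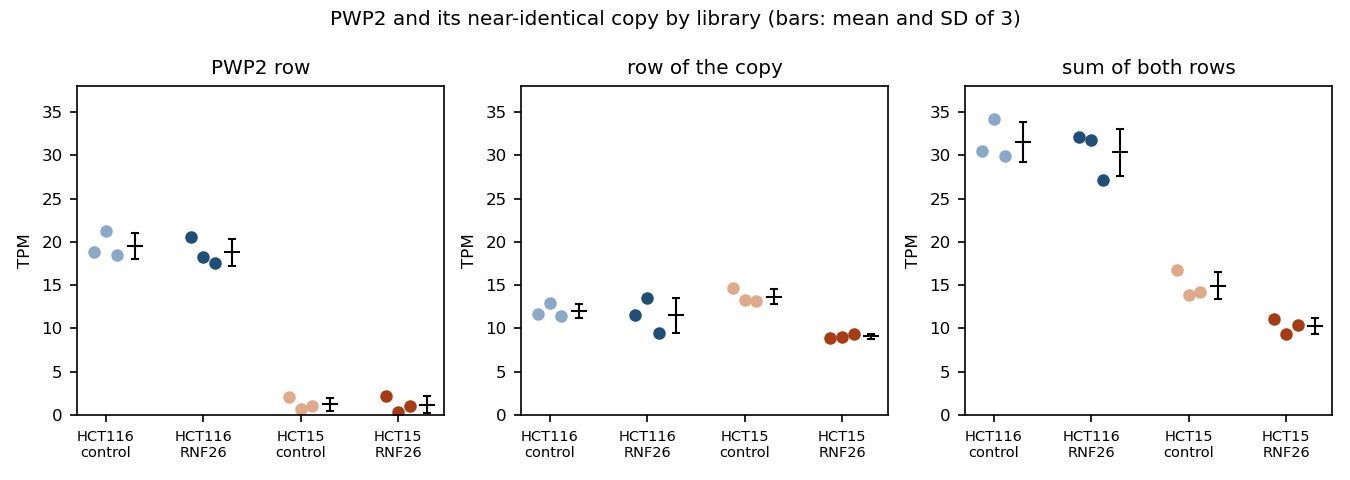
TPM of the PWP2 row, of its near-identical copy and of their sum is plotted for each of the 12 libraries as points, with the mean and SD of each group. The PWP2 row is near 20 TPM in HCT116 and between 0.32 and 2.21 TPM in HCT15, while the sum runs from about 30 TPM in HCT116 to 9.30 to 11.1 TPM in the HCT15 RNF26 libraries.

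A wider list of 115 other ribosome biogenesis genes, chosen by name, had more falls than rises in HCT15 as well. Of these 52 fell and 5 rose (limma, adjusted p under 0.05), or 45.2% and 4.35%, against 31.2% and 5.39% of all tested genes. The median log2 fold change was -0.23 against -0.17 over all tested genes. RUVBL2 and RUVBL1, the ATPases that help to assemble box C/D snoRNPs, fell to 115 ± 0.627 TPM from a control level of 204 ± 13.1 and to 37.7 ± 0.616 TPM from 63.9 ± 5.83 (SD, n = 3 each). NAT10, which acetylates 18S rRNA, fell by 0.94 (log2, limma adjusted p = 6.32e-05) and NOC2L by 0.73 (adjusted p = 6.88e-05). Those that rose were the pre-60S factor RSL24D1 (0.46), the box C/D chaperone NOPCHAP1 (0.37), NIFK (0.46), DNTTIP2 (0.33) and RPF2 (0.41), the last named after its value was seen. The split was 23 lower and 21 higher with median-ratio scaling, 26 and 20 with quantile normalization, 35 and 14 after removal of mitochondrial and ribosomal protein genes, and 62 and 2 after the GC and length correction, and 10 rose without HCT15 control replicate 2. With median-ratio scaling the shares of the list, 20% lower and 18.3% higher, were near the 16.7% and 14.4% of all tested genes, and its median lay -0.013 from theirs. With quantile normalization the shares were 22.6% and 17.4% against 16.2% and 14.6%, and the medians differed by 2.65e-04. After the removal they were 30.4% and 12.2% against 22.5% and 9.12%, and after the GC and length correction 53.9% and 1.74% against 33.4% and 4.26%. In HCT116 limma called 0 of the 115, and 6 had an unadjusted p under 0.05.

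**Figure D5:**
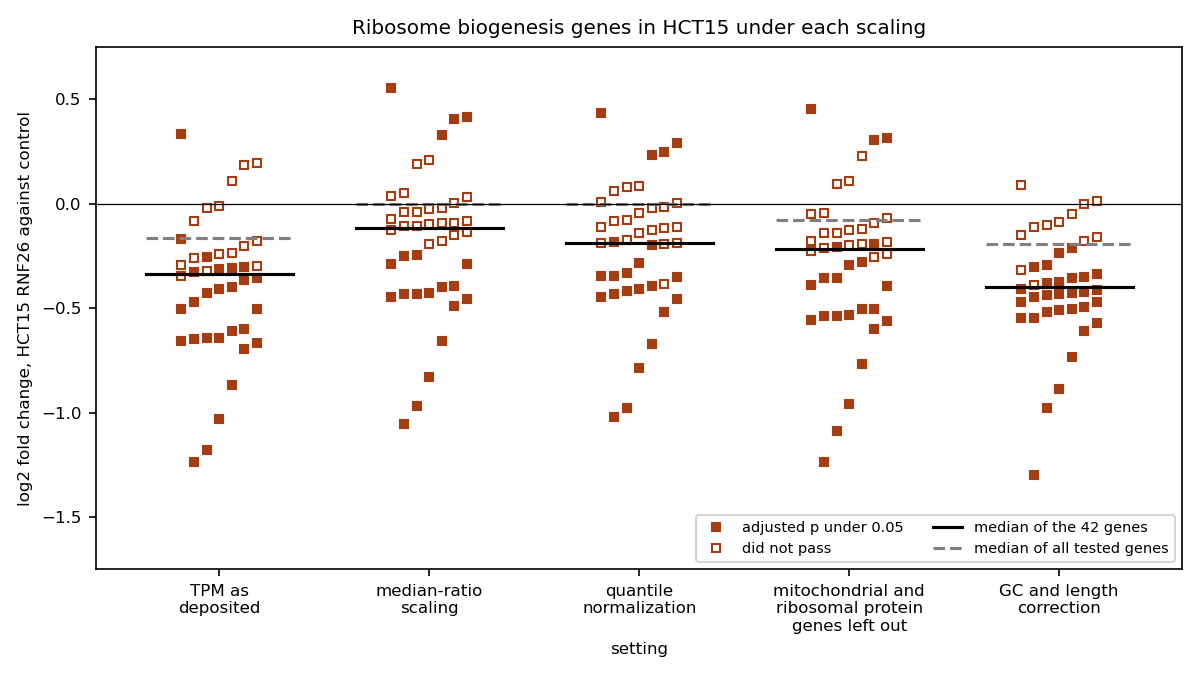
The log2 fold change of each of the 42 genes in HCT15 (RNF26 against control) is plotted under the TPM as deposited and under 4 other scalings, filled where the adjusted p was under 0.05. The solid bar is the median of the 42 genes and the dashed bar that of all tested genes: the solid bar lies below the dashed bar in all 5, at -0.34, -0.12, -0.19, -0.22 and -0.40, while the whole cloud moves up with median-ratio scaling, where DKC1 has the opposite sign and 16 genes fell and 4 rose.

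MYC mRNA moved in the same direction as the set. It was at 136, 113 and 142 TPM in control libraries 1, 2 and 3 and 61.4, 65.6 and 65.6 TPM in the RNF26 libraries of HCT15 (log2 fold change -1.001, SE 0.0897, limma adjusted p = 4.33e-05), with no overlap, and averaged 144 ± 7.06 TPM in HCT116 controls and 144.2 ± 11.74 TPM in HCT116 with RNF26. Between the control lines the log2 difference of MYC was -0.15 (HCT15 minus HCT116) and did not pass (limma adjusted p = 0.156). Its part in the result was not tested. Among genes with a promoter window, 11 of 17 with the E-box fell in HCT15 (median log2 fold change -0.32) and 10 of 19 without it (median -0.32), against 31.2% of all tested genes.

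GC content ran with the size of the change. Across the 42 genes the Spearman correlation of the HCT15 log2 fold change with transcript GC content was -0.62, and it was -0.42 across 14849 tested genes, all measured in the same libraries. With transcript length the HCT15 values were -0.37 and -0.11. In HCT116 the correlation with GC content was -0.34 across the 42 genes and -0.18 across the 14849. BOP1 (65.7%) and PPAN (63.2%) had the highest GC content and TAF1D the lowest. POLR1A, the largest fall, had a GC content of 51.7%, near the median of 50.7% for the set. The median log2 fold change of the 42 genes was -0.40 with GC and length corrected, and -0.21 relative to all genes. Of the 10 members with a snoRNA gene inside, 6 fell and 1 rose (median -0.32), and 20 of the other 32 fell (median -0.38). Of all tested genes 31.2% fell and 5.39% rose. The sources used here do not say whether reads were counted by strand, so the levels of the 20 members that overlap a gene on the other strand are uncertain.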

How the data were processed

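The deposited values are TPM (transcripts per 1000000) per gene, in 1 column per library. The authors used RSEM, StringTie, HISAT2 and fastp and build GRCh38, per the submitters' processing notes. The sources used here give neither versions nor the annotation. TPM has a fixed total, so a gene's value depends on the others, and depth is unknown. Groups came from the sample titles. Names, positions, GC content and length (medians over transcripts) came from GENCODE release 29.

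A single limma 3.58.1 fit (R 4.3.3) on log2(TPM + 1) covered the 15584 genes that reached 1 TPM in 3 or more of the 12 libraries. It had a mean per group, eBayes with a trend, and 8 residual and 3.09 prior degrees of freedom. Fold changes on that scale understate those of low genes. Tests were two-sided, with Benjamini-Hochberg adjustment over all tested genes and a threshold of 0.05. The fit was also run on simulated data with independent values and neither a shift of all genes nor a GC trend. That run cannot speak to the scalings or the GC correction. Median-ratio scaling used 7524 genes, and the GC and length correction, by splines of 5 degrees of freedom, kept each library's mean.

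The members and lists were chosen with earlier results of these data known, and of 117 names on the wider list 115 were matched. Named with full values were, in each role, at most 4 members, those of smallest p in HCT15, members called higher there, the 3 with the smallest p in HCT116, the 4 with the smallest p for the difference, the 4 largest called differences each way between controls, the highest and lowest by mean, the 4 other biogenesis genes with the smallest p each way, RNF26 and MYC. Members named beyond this rule were chosen after their values were seen.

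The sample titles do not say whether replicate numbers pair the libraries, and the main fit used no pairing. Same-numbered libraries of a line had correlations of deviations from -0.042 to 0.15, and others from -0.12 to 0.11. With so few libraries these values cannot settle whether they were paired. Alternatives were other pseudocounts, filters, scalings and variance settings, a fit of each line alone, a replicate block and leaving out each library.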

Additional observations from a re-analysis of the deposited data

Results flagged for a closer look

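For 23 genes the RNF26 effect on the log2 scale differed between the lines by limma's test of the difference (HCT15 minus HCT116, adjusted p under 0.05), and all were lower in HCT15 on the deposited TPM. Of all tested genes 18.7% had a lower and 1.8% a higher effect in HCT15. Among polymerase I genes the differences were -1.38 for POLR1A and -0.72 for UBTF. For snoRNP and nucleolar proteins they were -0.37 for NOP56, -0.53 for NHP2, -0.50 for NOLC1 and -0.49 for LYAR. In the small subunit group they were -1.04 for RRP12, -0.79 for NOP14, -0.75 for BYSL, -0.65 for RRP9, -0.58 for UTP20, -0.57 for IMP4, -0.53 for TSR1, -0.39 for WDR43 and -0.29 for UTP4. In the large subunit group they were -1.07 for BOP1, -0.79 for LAS1L, -0.74 for PPAN, -0.67 for NOP2, -0.62 for RRP1B, -0.44 for PES1, -0.38 for RRS1 and -0.34 for MRTO4. The median difference over all tested genes was -0.18. The calls were not equally firm: 7 of the 23, on POLR1A, UTP20, NOP14, RRP12, BOP1, LAS1L and RRP1B, held in all 24 settings of this comparison. Each of the others ended in at least 1 setting. Those on MRTO4, NOP2, PES1, RRS1, WDR43, UTP4 and LYAR also ended on the omission of any of several single libraries.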

How the results depend on the processing

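With median-ratio scaling, quantile normalization and mitochondrial and ribosomal protein genes left out, the median log2 fold change of the 42 genes in HCT15 was -0.12, -0.19 and -0.22 in place of -0.34, the genes that rose were 4, 4 and 3 in place of 1, and the differing effects 10, 10 and 15 in place of 23. Under all 3 the share of all tested genes with a lower effect in HCT15 was smaller too. With median-ratio scaling 16 genes fell in place of 26, and DKC1 turned to 0.0501. For the 115 other genes the first 2 scalings gave 23 and 26 falls in place of 52, and all 3 gave 21, 20 and 14 rises in place of 5. A fit of each line alone gave 0 rises among the 42 genes, and 29 falls and 2 rises among the others. The GC and length correction, with or without the replicate block, gave a median of -0.40, 0 rises, and 2 rises among the others. The replicate block left 26 falls and 1 rise in HCT15 and gave 15 differing effects. Without 1 library at a time the median ran from -0.41 to -0.32, the differing effects from 15 to 29 and the rises among the others from 4 to 10. For these fits, the replicate block and the fit of each line alone, the shares of all tested genes are not given here. The causes were not tested, beyond the scalings' own construction. The 0 calls in HCT116 and the direction of the HCT15 median held under every setting run. With 3 libraries per group and no depth, the number of libraries limits precision.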
